A study of Homo sapiens with 16 samples.

Results

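A set of 10 genes that tumour cells can use to restrain immune attack, CD274, PDCD1LG2, CD276, VTCN1, PVR, NT5E, ENTPD1, IDO1, LGALS9 and CD47, were followed across the 8 groups of a triple-negative breast cancer RNA-seq study. They were chosen by symbol for their known function, with earlier results of these data known. They matched 10 of the 57820 Ensembl gene identifiers in the count and TPM tables. All 10 passed the filter on low counts, among 16069 protein-coding genes tested for the low-serum libraries and 15414 for the standard-serum ones.

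MDA-MB-231 and MDA-MB-436 are established mesenchymal triple-negative breast cancer lines. Both carried the 7TGP construct, in which repeated TCF sites drive eGFP as a readout of Wnt activity, together with a puromycin resistance cassette, and each was sorted by fluorescence into a 7TGP-POS and a 7TGP-NEG subline (POS and NEG hereafter). Each subline is 1 sorted population, and the positive ones still held some eGFP-negative cells. Every subline was grown in 0.5% FBS with RNA taken at day 3 (low serum) or in 10% FBS with RNA taken at day 6 (standard serum), with 2 biological replicates in each of the 8 groups, 16 libraries in all. The low-serum libraries were rRNA-depleted and the standard-serum ones poly(A)-selected, according to the study's methods, and they were read on different sequencers. Serum, culture time, library chemistry and sequencer therefore cannot be told apart, and no test was made between the serum conditions. The replicates are cultures of the same sublines, so the p-values measure the spread between cultures and not between independent sorts. In addition, the methods give a different culture medium for each line, so line and medium cannot be told apart either. The sample labels differ from the methods on both points, naming a single mRNA kit for every library and DMEM for both lines.

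These proteins act at different points. PD-L1 (CD274) and PD-L2 (PDCD1LG2) are ligands of the T cell inhibitory receptor PD-1, and B7-H3 (CD276) and B7-H4 (VTCN1) belong to the same B7 family. PVR (CD155) engages TIGIT, CD96 and CD226 on T and NK cells, while LGALS9 encodes galectin-9, a ligand of TIM-3. CD39 (ENTPD1) and CD73 (NT5E) degrade extracellular ATP to adenosine in successive steps, IDO1 starts the breakdown of tryptophan to kynurenine, and CD47 gives macrophages a "do not eat me" signal through SIRPA.

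Library totals ranged from 27918418 to 32667756 counts in low serum and from 31827130 to 46044073 in standard serum. Levels are given as library-size-scaled counts (CPM, with TMM scaling) for comparisons of 1 gene between groups, and as the deposited TPM for comparisons between genes. The labelled cell type was checked first. VIM, the mesenchymal intermediate filament gene, was the highest of 8 mesenchymal markers in every group, with group means between 388 and 3710 TPM, and it was lower in POS than in NEG MDA-MB-231 cells by 1.05 (low serum) and 1.03 (standard serum) on the log2 scale (adjusted p = 2.69e-20 and 1.17e-08). In the MDA-MB-231 groups 5 or 6 of the 8 reached a mean of 1 TPM, while CDH2 and TWIST1 stayed under it. In the MDA-MB-436 groups 7 or 8 did. Epithelial genes were also present. The 8 luminal and epithelial markers summed to between 282 and 789 TPM in a library. KRT8 or KRT18 was the highest of them in each group, with means of 192 to 408 TPM. Of 17 leukocyte and endothelial markers, between 1 and 4 reached a mean of 1 TPM in a group, chiefly CD14, LYZ, PTPRC and CD8A. Their summed level was 15.5 to 24.2 TPM in MDA-MB-231 and 11.5 to 17.5 TPM in MDA-MB-436 in low serum, and 13.7 to 19.6 and 9.03 to 15.1 TPM in standard serum. The B cell gene MS4A1 was at 0 in 5 of the 8 groups, and so was the T cell gene CD3E. In these bulk samples a change in the share of cells that use a gene and a change in RNA per cell cannot be told apart.

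NT5E was the most abundant of the 10 in every MDA-MB-231 group. Its mean was 540 ± 13.4 TPM in NEG and 517 ± 18.8 TPM in POS cells in low serum, and 1040 ± 58.6 and 997 ± 38.9 TPM in standard serum (SD, n = 2 for these and all means). PVR came next, with 69.6 ± 1.85, 84.8 ± 7.68, 362 ± 14.8 and 471 ± 10.4 TPM in the same order of groups. In MDA-MB-436 the order was flatter. In low serum the NEG cells had CD47 at 51.3 ± 2.86, CD276 at 50.6 ± 2.98, PVR at 42.9 ± 5.98 and NT5E at 42.7 ± 4.6 TPM, which did not differ beyond their spread within the pairs CD47 and CD276, and PVR and NT5E. CD276 led in standard-serum NEG cells at 105 ± 2.31 TPM, whereas in POS cells NT5E led in low serum at 117 ± 9.04 TPM and PVR in standard serum at 86.5 ± 1.88 TPM, ahead of NT5E at 80.6 ± 2.35 TPM. IDO1, VTCN1 and ENTPD1 stayed under 1 TPM in all 16 libraries.

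**Figure D1:**
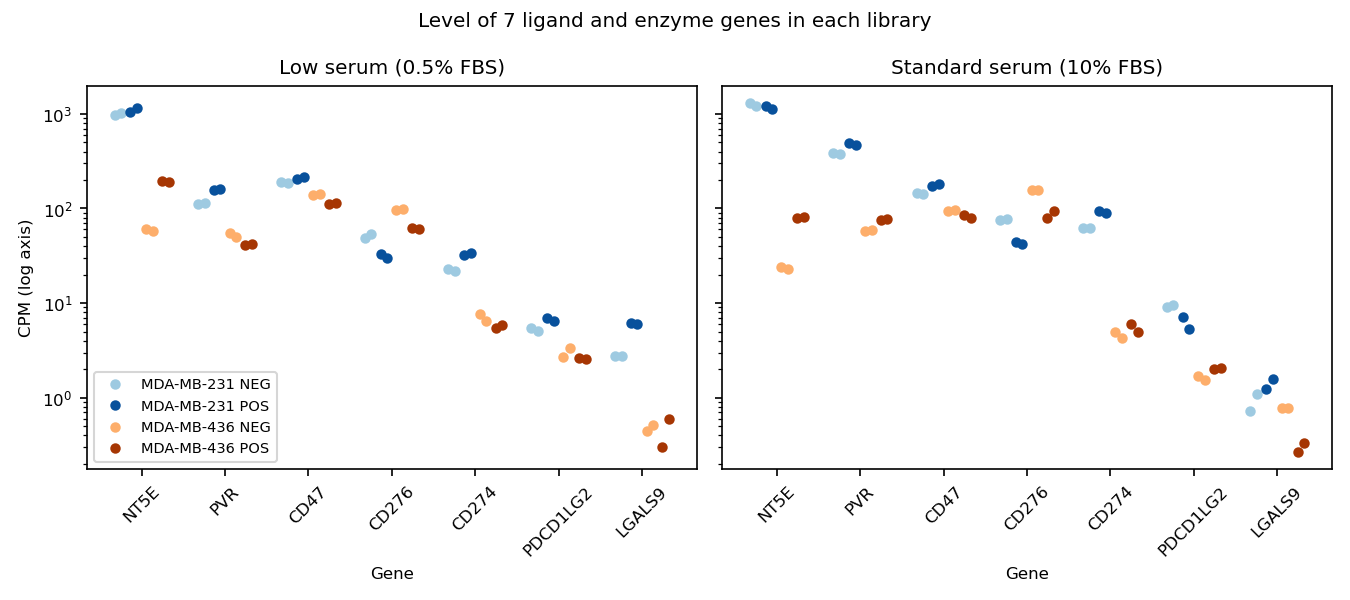
CPM on a log axis for the 7 genes that had counts in every library above a few reads, 1 point per library and 2 points per group, in low serum (left) and standard serum (right). NT5E lies near 1000 CPM in all MDA-MB-231 libraries, while in MDA-MB-436 the POS points (194 and 192 CPM in low serum) stand clear of the NEG points (61 and 57.9 CPM).

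The first comparison asked which of these genes differ between reporter-positive and reporter-negative cells. A gene is said to have risen or fallen where its adjusted p was under 0.05 (edgeR's quasi-likelihood test, Benjamini-Hochberg over all genes tested), and to be called where it also changed at least 2-fold. In MDA-MB-231, 1 of 10 was called in low serum (LGALS9) and 1 of 10 in standard serum (IDO1), where 5.9% and 7.69% of all genes tested were called. In MDA-MB-436, 2 of 10 were called in low serum (NT5E and IDO1) and 2 of 10 in standard serum (NT5E and LGALS9), where the share over all genes was 10.5% and 12.5%. Without the 2-fold requirement 6 of 10 passed in MDA-MB-231 in each serum, against 38.9% and 33% of all genes, and 6 and 5 of 10 passed in MDA-MB-436, against 52% and 49.5%. The median log2 fold change over the 10 was 0.33 and 0.31 in MDA-MB-231 and -0.17 and 0.30 in MDA-MB-436 (low and standard serum), beside -0.01, 0.00, 0.01 and 0.00 over all genes tested.

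**Figure D2:**
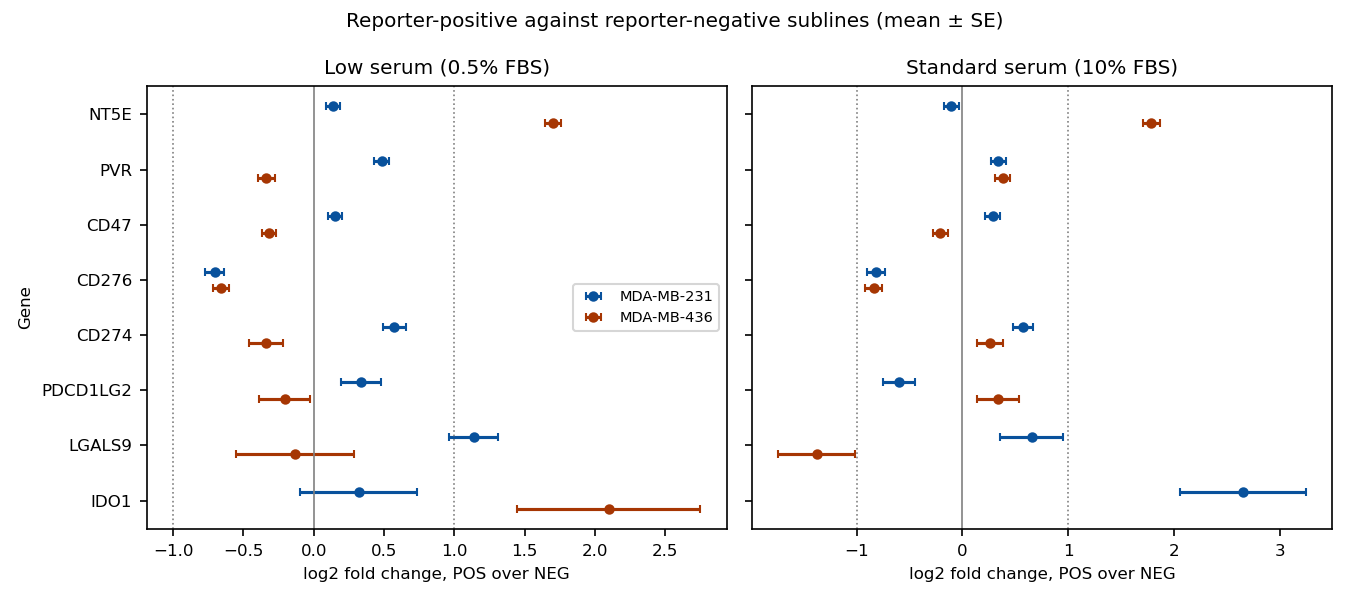
log2 fold change of POS over NEG with its standard error for 8 genes in each line, in low serum (left) and standard serum (right); dotted lines mark a 2-fold change. IDO1 in MDA-MB-436 in standard serum is left out because its libraries held at most 3 counts, and VTCN1 and ENTPD1 are left out for low counts. CD276 lies left of 0 in all 4 comparisons, and NT5E lies beyond 1.6 in MDA-MB-436 alone.

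NT5E, on chromosome 6 (GRCh37, 86159302 to 86205509, plus strand), gave the largest change that rested on high counts. Its RefSeq promoter (GRCh38.p14, chr6:85449833-85450082, plus strand, the 250 bases before the start) is shown because this gene differed most between the sublines:
NT5E: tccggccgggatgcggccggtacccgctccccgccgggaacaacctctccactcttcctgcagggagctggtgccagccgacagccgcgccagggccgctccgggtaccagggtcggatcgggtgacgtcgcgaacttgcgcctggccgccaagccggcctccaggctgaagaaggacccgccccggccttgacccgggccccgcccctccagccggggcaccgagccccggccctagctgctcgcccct
In low serum its level in MDA-MB-436 was 61 and 57.9 CPM in NEG cells and 194 and 192 CPM in POS cells. In standard serum it was 23.8 and 23 CPM in NEG cells and 79.6 and 82.1 CPM in POS cells. The POS libraries were above both NEG libraries in each serum, and the log2 fold changes were 1.70 ± 0.06 (SE, adjusted p = 1.7e-26) and 1.79 ± 0.08 (adjusted p = 3.94e-12). In MDA-MB-231 the level was 985 and 1010 CPM in NEG and 1050 and 1150 CPM in POS cells in low serum. It was 1290 and 1220 CPM in NEG and 1210 and 1130 CPM in POS cells in standard serum. The difference there was 0.14 ± 0.05 (adjusted p = 0.0251) in low serum and -0.10 ± 0.07 (adjusted p = 0.318) in standard serum. The small low-serum rise lost the threshold without either NEG library (adjusted p = 0.183 and 0.0844) or the second POS library (0.309), and its sign turned on the TPM scale (-0.06). The reporter difference itself differed between the lines, by -1.56 ± 0.08 (adjusted p = 1.34e-20) and -1.89 ± 0.11 (adjusted p = 1.75e-10) for MDA-MB-231 minus MDA-MB-436. The 9 and 8 tested genes that start within 2 Mb of NT5E had a median log2 fold change of 0.25 and 0.26 in MDA-MB-436, and 0 of them were called.

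ENTPD1, the gene of the enzyme upstream of CD73, was close to undetected. Its highest library held 11 counts in low serum and 6 in standard serum, and it shares exonic bases with the antisense gene ENTPD1-AS1 and 2 other genes, so that even these few counts are uncertain. No fold change is given where no library of the groups compared exceeded 12 counts, a limit set after the counts were seen. The same applies to VTCN1, which had at most 5 counts in a low-serum library and 7 in a standard-serum one.

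The wider set of 22 genes for ATP, NAD and adenosine handling was then read beside NT5E; 20 were tested in each serum. In MDA-MB-231, 2 were called higher and 2 lower in low serum, and 2 higher and 3 lower in standard serum. In MDA-MB-436, 4 were called higher and 1 lower, then 3 higher and 2 lower. Over all genes tested, 5.9% and 7.69% were called in MDA-MB-231 and 10.5% and 12.5% in MDA-MB-436 (low and standard serum). The call of ENTPD8 in MDA-MB-231 in standard serum (adjusted p = 0.0358) was lost with DESeq2 (0.188) and without either NEG or the second POS library (0.0713, 0.172 and 0.347), and that of ALPL in MDA-MB-436 in low serum (0.048) with DESeq2 (0.265) and without the second NEG or either POS library (0.313, 0.232 and 0.0657). ADORA2B, the low-affinity A2B adenosine receptor, was called higher in all 4 comparisons. In MDA-MB-231 it stood at 25 and 24.8 CPM in NEG and 76.5 and 75.1 CPM in POS cells in low serum, and at 54.6 and 55.5 CPM against 156 and 150 CPM in standard serum. In MDA-MB-436 it stood at 14.7 and 12.9 CPM against 34.5 and 33.1 CPM in low serum, and at 11.3 and 11 CPM against 27 and 30.1 CPM in standard serum. All POS libraries were above all NEG libraries of the same line and serum. The log2 fold changes were 1.61 ± 0.07 and 1.48 ± 0.08 in MDA-MB-231 (adjusted p = 8.54e-23 and 8.92e-11) and 1.29 ± 0.07 and 1.35 ± 0.09 in MDA-MB-436 (adjusted p = 2.82e-18 and 5.61e-10). P2RY2, a receptor for ATP and UTP, fell in MDA-MB-231 by 1.47 and 1.18 on the log2 scale (adjusted p = 1.27e-14 and 1.75e-05) and in MDA-MB-436 in standard serum by 2.11 (adjusted p = 0.00383, or 0.111 without the second NEG library), where its libraries held 2 to 16 counts. ENTPD8, another ectonucleotidase that degrades ATP, rose in MDA-MB-436 by 4.67 ± 0.42 and 3.82 ± 0.58 (adjusted p = 1.73e-12 and 2.64e-05) from 1 to 5 counts in the NEG libraries, the low-serum value being 6.23 without the second NEG library. ALPL, an alkaline phosphatase that can also release adenosine, fell in MDA-MB-436 in standard serum by 2.55 (adjusted p = 9.51e-05).

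**Figure D3:**
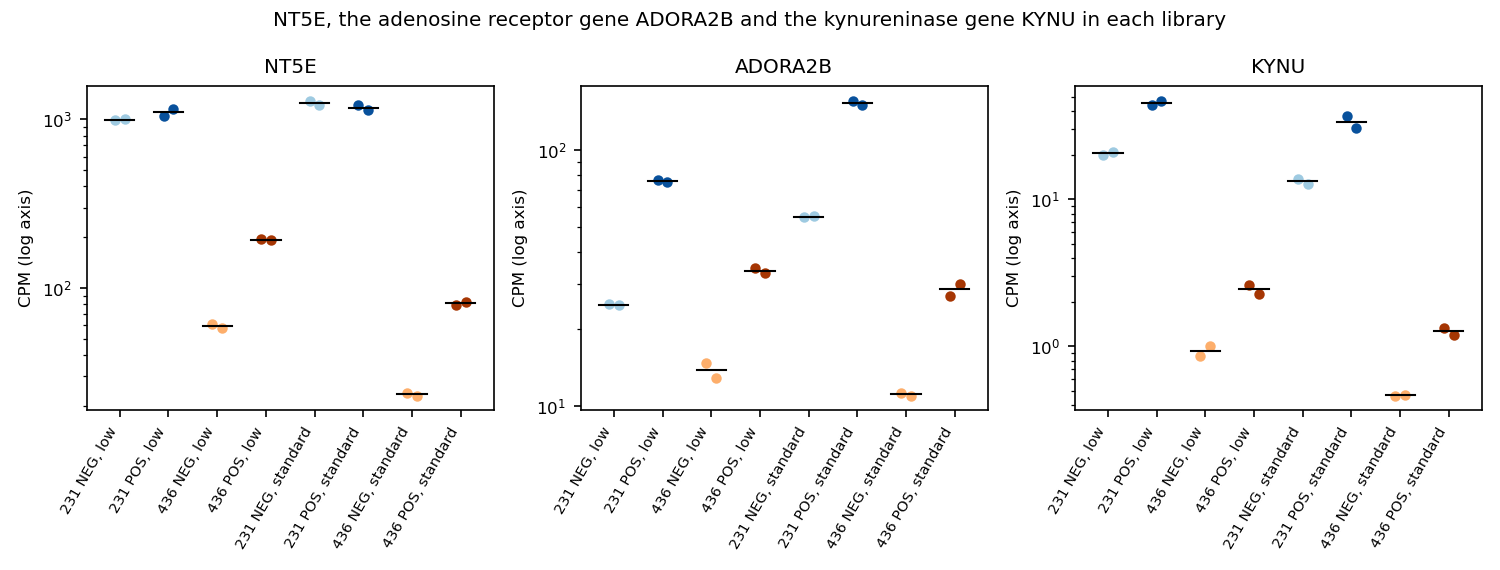
CPM on a log axis for NT5E, ADORA2B and KYNU in each of the 16 libraries (points) with group means (lines); 231 and 436 stand for the 2 lines, and low and standard for the serum. ADORA2B and KYNU are higher in POS than in NEG libraries in each line and serum, and NT5E is so in MDA-MB-436.

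The tryptophan pathway was examined next. IDO1, on chromosome 8 (39759794 to 39786309, plus strand), was rare throughout and is reported by its counts. In MDA-MB-436 in low serum it had 4 and 2 counts in the NEG libraries and 12 and 14 in the POS libraries, a log2 fold change of 2.10 ± 0.65 (adjusted p = 0.00623) that lost the threshold without the second NEG library (adjusted p = 0.0551). In MDA-MB-231 in standard serum it had 3 and 4 counts in NEG and 21 and 27 in POS libraries, a log2 fold change of 2.65 ± 0.60 (adjusted p = 0.00187, but 0.0602 with DESeq2). In MDA-MB-231 in low serum the counts were 18 and 13 against 14 and 23, which overlapped. In MDA-MB-436 in standard serum they were 3 and 0 against 0 and 1, at or under the detection floor of 3 counts per library, and no fold is given. An antisense long noncoding RNA shares exonic bases with IDO1, and which strand column was counted is not given in the sources used here.

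Of the 19 listed genes of tryptophan breakdown and aryl hydrocarbon receptor signalling, 17 were tested. In MDA-MB-231, 2 were called higher and 1 lower in low serum, and 3 higher and 1 lower in standard serum. In MDA-MB-436, 5 were called higher in low serum and 2 in standard, and 0 were lower in either. The shares over all genes were 5.9% and 7.69% in MDA-MB-231 and 10.5% and 12.5% in MDA-MB-436 (low and standard serum). KYNU, which encodes kynureninase and acts downstream of kynurenine, was called higher in all 4 comparisons; it was singled out after its values were seen. Its level was 20.1 and 21.1 CPM in NEG and 44 and 46.8 CPM in POS MDA-MB-231 cells in low serum. In standard serum it was 13.8 and 12.8 CPM against 36.6 and 30.6 CPM. MDA-MB-436 cells had far less, with 0.866 and 1 CPM against 2.61 and 2.29 CPM in low serum and 0.464 and 0.471 CPM against 1.34 and 1.2 CPM in standard serum. The POS libraries were the higher ones in each case, by 1.14 ± 0.08 and 1.34 ± 0.11 in MDA-MB-231 (adjusted p = 1.61e-15 and 4.3e-08) and 1.40 ± 0.21 and 1.44 ± 0.24 in MDA-MB-436 (adjusted p = 4.54e-07 and 7.99e-05) on the log2 scale. TDO2, the other enzyme that opens the tryptophan ring, rose in MDA-MB-231 by 1.66 ± 0.35 and 4.01 ± 0.45 (adjusted p = 0.000173 and 2.37e-06), in standard serum from 5 and 2 counts to 56 and 67. Its low-serum value was 1.13 without the first NEG library and 2.47 without the second. CYP1A1, a target gene of the aryl hydrocarbon receptor, fell in MDA-MB-231 by 2.44 and 2.43 (adjusted p = 3.76e-17 and 9.25e-11), whereas CYP1B1, another target gene, rose by 0.65 and 2.54 (adjusted p = 6.56e-11 and 1.98e-13). KMO, which competes with kynureninase for kynurenine, went from 2 and 0 counts to 11 and 18 in MDA-MB-436 in low serum.

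CD274, on chromosome 9 (5450503 to 5470566, plus strand), moved less than 2-fold in every POS and NEG pair. In MDA-MB-231 its level was 22.8 and 21.6 CPM in NEG and 32.5 and 33.6 CPM in POS cells in low serum. In standard serum it was 61.8 and 62.5 CPM in NEG and 94.6 and 90.4 CPM in POS cells. The POS libraries were the higher ones in both, and the log2 fold change was 0.57 ± 0.08 in low serum (adjusted p = 1.76e-07) and 0.57 ± 0.09 in standard serum (adjusted p = 6.52e-05). On log2(TPM + 1) the low-serum value was 0.35 (limma, adjusted p = 0.054). On that scale the median of genes of at least 5 CPM was -0.19 in this comparison. In MDA-MB-436 the level was 7.63 and 6.5 CPM in NEG and 5.43 and 5.81 CPM in POS cells in low serum, a fall of 0.34 ± 0.12 (adjusted p = 0.0155) that lost the threshold without the first NEG library (adjusted p = 0.253) or the first POS library (0.06). In standard serum it was 4.96 and 4.27 CPM against 6.06 and 4.92 CPM, which overlapped, with a difference of 0.26 ± 0.12 (adjusted p = 0.082, or 0.00878 without the second POS library). The response in low serum differed between the lines by 0.91 ± 0.14 (adjusted p = 1.18e-06), and in standard serum by 0.31 ± 0.15 (adjusted p = 0.111).

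PVR, on chromosome 19 (45147098 to 45169430, plus strand), had the same sign as CD274 in all 4 comparisons. In low serum it rose in MDA-MB-231 from 111 and 114 to 156 and 159 CPM and fell in MDA-MB-436 from 54.8 and 49.7 to 40.7 and 42.2 CPM. Both lines showed a rise in standard serum, from 389 and 374 to 493 and 473 CPM in MDA-MB-231 and from 57.9 and 58.8 to 75.2 and 76.7 CPM in MDA-MB-436. No POS library overlapped with a NEG library of the same line and serum. The log2 fold changes in low serum were 0.48 ± 0.05 (adjusted p = 7.38e-10) and -0.34 ± 0.06 (adjusted p = 8.3e-06), which differed between the lines by 0.82 ± 0.08 (adjusted p = 2.63e-11). In standard serum they were 0.34 ± 0.07 (adjusted p = 0.00074) and 0.38 ± 0.07 (adjusted p = 0.000219), and their difference was -0.04 ± 0.10 (adjusted p = 0.807). On log2(TPM + 1) the low-serum rise in MDA-MB-231 was 0.28 (limma, adjusted p = 0.0761), where the median of genes of at least 5 CPM was -0.19. PVR shares exonic bases with CEACAM19 on the same strand, so reads in that stretch cannot be given to either gene with certainty.

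Among 10733 genes that averaged 5 CPM or more in both serum conditions, PVR was the gene whose pattern over the 16 libraries was most like that of CD274 (Pearson r = 0.997 on log2(CPM + 1), centred within each serum), followed by TMED5 (0.994) and ERCC2 (0.994). This is a description only: the 16 points come from 2 cell lines that differ widely in both genes. Within one line, over 8 libraries, r between CD274 and PVR was 0.975 in MDA-MB-231 and 0.802 in MDA-MB-436. In the same order of lines, r of CD274 was -0.989 and -0.048 with CD276, 0.924 and 0.319 with CD47, and 0.133 and -0.104 with NT5E. These libraries are pairs of replicates that differ in reporter state, so r within a line also reflects the POS and NEG differences of each gene.

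**Figure D4:**
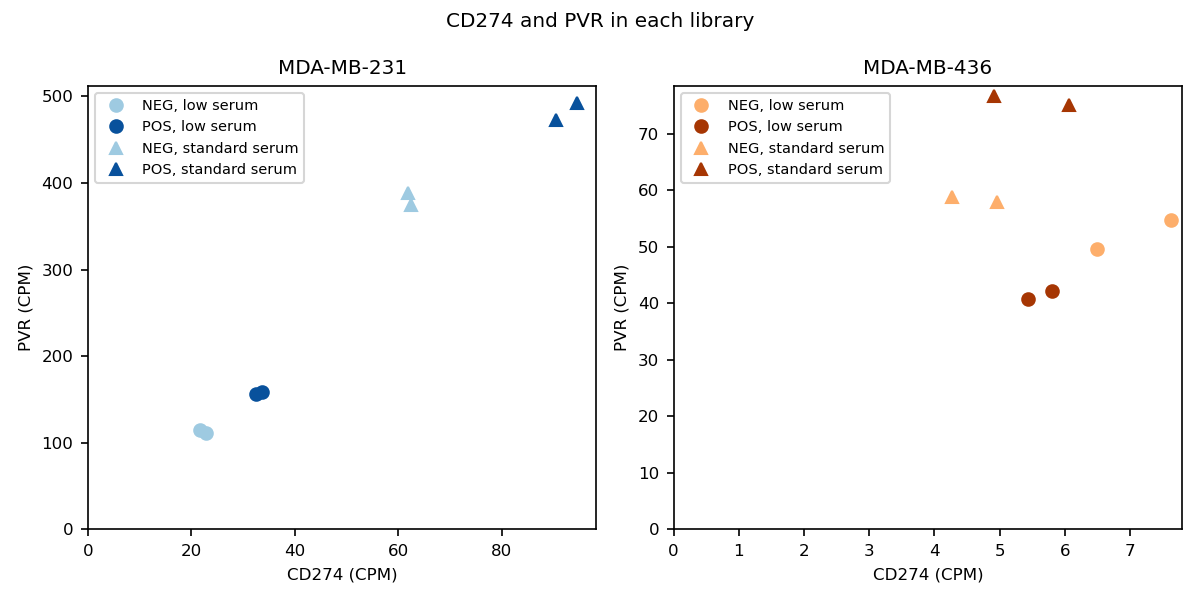
CPM of PVR against CPM of CD274, 1 point per library, for MDA-MB-231 (left) and MDA-MB-436 (right); circles are low serum, triangles standard serum, dark points POS and light points NEG. In MDA-MB-231 the POS points lie above and to the right of the NEG points of the same serum, and in MDA-MB-436 they lie below and to the left of them in low serum (40.7 and 42.2 against 54.8 and 49.7 CPM of PVR).

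The promoters of CD274 and PVR are shown because the signs of these genes matched each other in all 4 comparisons. In MDA-MB-436 in standard serum the CD274 difference did not pass. Of the 10 genes, 8 had an entry in the RefSeq table (PDCD1LG2 and IDO1 had none). Searched on both strands were ATCAAAG, the core of the TCF/LEF site also carried by the reporter, the interferon-stimulated response element (ISRE), TTCNNNGAA (interferon-gamma activated sequence, GAS) and TGANTCA (AP-1). Capitals mark matches, and each sequence is the 250 bases before the start in GRCh38.p14, plus strand (CD274, chr9:5450292-5450541; PVR, chr19:44643660-44643909).
CD274: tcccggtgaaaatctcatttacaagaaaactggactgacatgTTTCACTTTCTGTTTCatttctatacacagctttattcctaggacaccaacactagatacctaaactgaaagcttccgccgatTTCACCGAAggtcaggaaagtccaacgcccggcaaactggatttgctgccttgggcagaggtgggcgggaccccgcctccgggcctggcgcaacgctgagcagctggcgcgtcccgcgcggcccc
PVR: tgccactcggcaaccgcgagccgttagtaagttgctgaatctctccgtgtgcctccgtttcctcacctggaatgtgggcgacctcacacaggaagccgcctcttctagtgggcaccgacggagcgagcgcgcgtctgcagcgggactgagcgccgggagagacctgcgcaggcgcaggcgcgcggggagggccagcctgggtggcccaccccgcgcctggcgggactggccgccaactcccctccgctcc
CD274 held 2 overlapping ISRE matches, between 208 and 193 bases before the start, and 1 GAS match, between 125 and 117 bases before it. Over all 35116 promoter windows of that length, 3.02% held the ISRE letters, 6.57% the GAS letters, 6.57% the AP-1 letters and 2.26% the TCF/LEF core. None of the other 7 genes with an entry had any of these letters in this window, including the additional starts listed for CD276 and ENTPD1, and CD274 had neither the TCF/LEF core nor the AP-1 letters.

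Known regulators of PD-L1 and genes induced by interferon-gamma, which also induces CD274, were read as context. Of 20 listed regulators of PD-L1 transcription, stability and glycosylation, all were tested. Without regard to size 9 passed the adjusted p in low serum and 8 in standard serum in MDA-MB-231, and 11 did in each serum in MDA-MB-436, all but 1 of them by less than 2-fold. These counts stand beside the 38.9%, 33%, 52% and 49.5% of all genes given above. The exception was in MDA-MB-436 in standard serum, where B3GNT3, a glycosyltransferase that modifies PD-L1, was called lower by 1.46 ± 0.33 (adjusted p = 0.0012). Of 18 tested interferon-gamma response genes, 3 were called higher and 0 lower in MDA-MB-231 in each serum, and 1 higher with 2 lower (low serum) and 1 higher with 6 lower (standard serum) in MDA-MB-436. Over all genes 5.9% and 7.69% were called in MDA-MB-231 and 10.5% and 12.5% in MDA-MB-436 (low and standard serum). The test of the reporter difference between the lines, as MDA-MB-231 minus MDA-MB-436, called 9 of the 18 higher and 1 lower in standard serum. In low serum it called 2 higher and 1 lower. The shares over all genes, in either direction, were 13.8% and 11.7% (standard and low serum). The T cell attracting chemokine CXCL10 rose in MDA-MB-231 by 1.82 ± 0.26 and 2.80 ± 0.38 (adjusted p = 2.06e-07 and 1.3e-05) and fell in MDA-MB-436, with log2 fold changes of -2.13 and -3.91 (adjusted p = 1.08e-19 and 2.61e-10). In MDA-MB-436 in standard serum it went from 5.34 and 5.36 CPM to 0.39 and 0.306 CPM. CXCL11 had the same signs, with 1.53 and 1.61 in MDA-MB-231 and -2.22 and -3.85 in MDA-MB-436, and its call in MDA-MB-231 in standard serum was lost without the first NEG or the second POS library (adjusted p = 0.222 and 0.159) and with DESeq2 (0.0554). SOCS1, a feedback inhibitor of the pathway, rose in MDA-MB-231 by 1.27 and 2.67 (adjusted p = 7.78e-07 and 0.00464), the second value being 3.44 without the first NEG library. In MDA-MB-436 SOCS1 also rose in low serum, by 0.86 (adjusted p = 1.1e-09), and gave -0.18 in standard serum (adjusted p = 0.63). CIITA, the activator of MHC class II genes, rose in MDA-MB-436 from 0 and 5 counts to 42 and 58 in low serum and from 0 and 0 to 16 and 21 in standard serum. Its log2 fold change in MDA-MB-231 was 0.01 in low serum (adjusted p = 0.979) and 0.61 in standard serum (adjusted p = 0.00083).

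PDCD1LG2 lies beside CD274 on chromosome 9 (5510531 to 5571282). It had the same sign as CD274 in 3 of the 4 comparisons, none of which passed for PDCD1LG2, and the opposite sign in MDA-MB-231 in standard serum. In MDA-MB-231 it had 5.48 and 5.11 CPM in NEG and 6.9 and 6.47 CPM in POS cells in low serum, a difference of 0.34 ± 0.14 (adjusted p = 0.0599, or 0.0484 with DESeq2 size factors). Standard-serum cultures showed a fall of 0.60 ± 0.15 (adjusted p = 0.0052), from 9.02 and 9.6 to 7.04 and 5.28 CPM, while CD274 rose. That fall was lost without the second POS library (adjusted p = 0.0981). In MDA-MB-436 the differences were -0.21 ± 0.18 and 0.34 ± 0.20 (adjusted p = 0.365 and 0.169). On the TPM scale both passed, with -0.34 and 0.33 on log2(TPM + 1) (limma, adjusted p = 0.0327 and 0.0464) and -0.44 and 0.42 on log2(TPM + 0.1) (0.0422 and 0.0331). These scales had a shift of the same signs. The median of genes of at least 5 CPM was -0.23 and 0.10 on the first and -0.25 and 0.11 on the second. In standard serum the reporter difference in MDA-MB-231 minus that in MDA-MB-436 was -0.94 ± 0.25 (adjusted p = 0.00558).

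CD276, on chromosome 15 (73976307 to 74006855, plus strand), fell in all 4 comparisons. In low serum its level went from 49.1 and 53.1 to 32.8 and 29.8 CPM in MDA-MB-231, and from 96.5 and 98.1 to 62.4 and 60.8 CPM in MDA-MB-436. The standard-serum values went from 75 and 76.7 to 44.5 and 41.7 CPM in MDA-MB-231, and from 155 and 155 to 79.6 and 93.8 CPM in MDA-MB-436. Every POS library was below every NEG library of its line and serum. The fall was 0.70 ± 0.07 and 0.66 ± 0.06 on the log2 scale in low serum (adjusted p = 8.65e-12 and 1.08e-12, MDA-MB-231 first) and 0.82 ± 0.09 and 0.84 ± 0.08 in standard serum (adjusted p = 6.6e-07 and 1.62e-07). The reporter difference in MDA-MB-231 minus that in MDA-MB-436 was -0.04 ± 0.09 and 0.02 ± 0.12 (adjusted p = 0.721 and 0.937). The sign of these near-zero values varied with the scaling. The fall of CD276 passed the adjusted p on the TPM scale, with DESeq2 and without each library in turn in all 4 comparisons. The lowest and highest values over all these settings were -0.97 and -0.64.

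The promoter of CD276 (GRCh38.p14, chr15:73684133-73684382, plus strand, the first of 2 listed starts) is shown because this gene fell in every pair. It was the richest in G and C of the 4 promoters printed, at 80.8%, against 75.2% for NT5E, 70% for PVR and 54.8% for CD274.
CD276: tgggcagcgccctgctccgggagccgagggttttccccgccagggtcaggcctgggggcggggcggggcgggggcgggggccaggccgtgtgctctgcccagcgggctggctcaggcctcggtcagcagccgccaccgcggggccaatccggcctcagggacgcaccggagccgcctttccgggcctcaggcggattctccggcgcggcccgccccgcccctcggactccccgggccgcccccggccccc
Its chromosomal neighbours were read to see whether the fall was shared. In MDA-MB-231 the 43 tested genes that start within 2 Mb and averaged at least 1 CPM had a median log2 fold change of -0.44 (low serum) and -0.40 (standard serum), and 4 and 7 of them lay above 0. In MDA-MB-436 the medians were -0.09 and -0.20, with 11 and 10 above 0. The medians of the CD276 neighbours thus lay below the median of all genes in both lines. The median of all genes was -0.01 and 0.00 in MDA-MB-231 and 0.01 and 0.00 in MDA-MB-436. Whether a regional change has a part in the lower CD276 was not tested. Named after their values were seen, NPTN, the nearest gene called in MDA-MB-231, fell by 1.00 in standard serum (adjusted p = 5.31e-09) and NEO1, a netrin receptor family gene, fell by 1.66 (adjusted p = 2.01e-10). LOXL1, a matrix cross-linking enzyme gene, fell by 1.53 in MDA-MB-231 in standard serum (adjusted p = 7.76e-07) but rose in MDA-MB-436 in both sera (adjusted p = 5.61e-26 and 2.39e-10). CYP1A1, described above, lies 1035576 bases from the start of CD276. Over the 4 comparisons the neighbours of CD274 and PVR had medians between -0.07 and 0.03 for CD274 (16 or 17 genes) and -0.17 and 0.06 for PVR (71 or 73 genes).

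**Figure D5:**
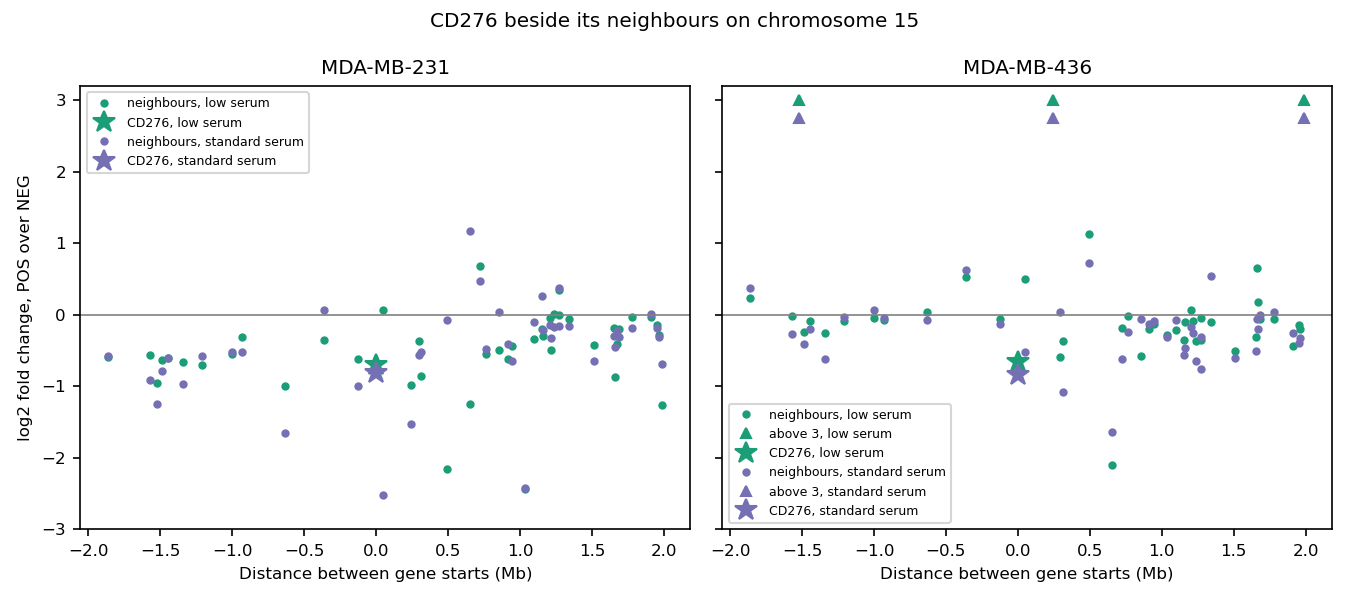
log2 fold change of POS over NEG for CD276 (stars) and for tested genes that start within 2 Mb of it (points), against the distance between gene starts in Mb, for MDA-MB-231 (left) and MDA-MB-436 (right); triangles near the top edge are neighbours above 3. In MDA-MB-231, 39 of 43 neighbours in low serum lie at or below 0.

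LGALS9, on chromosome 17 (25956824 to 25976586, plus strand), was called in opposite directions in the lines, in different sera. In MDA-MB-231 in low serum it had 2.78 and 2.76 CPM in NEG and 6.18 and 6.02 CPM in POS cells, a rise of 1.14 ± 0.17 (adjusted p = 7.92e-07) that was 0.56 on log2(TPM + 1). In MDA-MB-436 in standard serum it had 0.783 and 0.769 CPM in NEG and 0.267 and 0.331 CPM in POS cells, from 27 and 31 to 13 and 13 counts, a fall of 1.38 ± 0.36 (adjusted p = 0.00405) that was -0.32 on log2(TPM + 1). The groups did not overlap in either case. The other 2 comparisons did not pass, at 0.66 ± 0.29 in MDA-MB-231 in standard serum (adjusted p = 0.1) and -0.13 ± 0.42 in MDA-MB-436 in low serum (adjusted p = 0.825). The reporter difference in MDA-MB-231 minus that in MDA-MB-436 was 1.27 ± 0.46 in low serum (adjusted p = 0.0212) and 2.03 ± 0.47 in standard serum (adjusted p = 0.00183). In low serum it was lost without the second NEG or the first POS library of MDA-MB-436 (adjusted p = 0.0999 and 0.148). LGALS9 has near-identical paralogs and shares exonic bases with another protein-coding gene on its strand, so its counts are uncertain.

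CD47, on chromosome 3 (107761938 to 107810709, minus strand), moved in opposite directions in the lines and by less than 1.3-fold in each. In MDA-MB-231 its level went from 192 and 187 to 207 and 214 CPM in low serum and from 146 and 143 to 171 and 181 CPM in standard serum. In MDA-MB-436 it went from 139 and 142 to 112 and 113 CPM and from 94.7 and 96.1 to 85.3 and 80 CPM. The libraries of POS and NEG cells did not overlap in any of the 4 pairs. In MDA-MB-231 the log2 fold changes were 0.15 ± 0.05 (adjusted p = 0.0122) and 0.29 ± 0.07 (adjusted p = 0.0045). Those in MDA-MB-436 were -0.32 ± 0.05 (adjusted p = 7.96e-07) and -0.21 ± 0.07 (adjusted p = 0.0239). Of these, the fall in low serum in MDA-MB-436 was the one that passed in every setting tried. The rise in MDA-MB-231 in low serum was lost without the second NEG library (adjusted p = 0.124) and had the other sign on the TPM scale (-0.05). In standard serum the rise was lost without the second NEG or second POS library (adjusted p = 0.0567 and 0.0563), and the fall in MDA-MB-436 without either NEG library (0.0729 and 0.109) or the second POS library (0.0523) and on the TPM scale (-0.11, adjusted p = 0.195 and 0.194). The 5 and 4 tested genes within 2 Mb of CD47 had medians of 0.30 (5 above 0) and 0.45 (4 above 0) in MDA-MB-231, and of -0.06 (2 above 0) and 0.27 (3 above 0) in MDA-MB-436, and their part in the CD47 values was not tested. The reporter difference in MDA-MB-231 minus that in MDA-MB-436 was 0.47 ± 0.07 in low serum (adjusted p = 3.91e-07) and 0.49 ± 0.10 in standard serum (adjusted p = 0.000741).

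Of the other 12 tested genes of phagocytosis and its bridging signals, 2 were called in MDA-MB-436 in low serum, both higher, and 2 higher and 2 lower in standard serum. In MDA-MB-231, 2 were called in standard serum, both lower. The shares over all genes were 10.5% and 12.5% in MDA-MB-436 (low and standard serum) and 7.69% in MDA-MB-231 in standard serum. THBS1, which encodes thrombospondin-1, a secreted ligand of CD47, went in MDA-MB-436 from 49.8 and 49.7 to 322 and 330 CPM in low serum and from 9.92 and 9.75 to 71.5 and 73.7 CPM in standard serum. These rises of 2.71 ± 0.06 and 2.88 ± 0.09 (adjusted p = 2.19e-33 and 2.85e-14) stood beside rises of 0.96 ± 0.05 and 0.50 ± 0.08 in MDA-MB-231 (adjusted p = 1.55e-19 and 4.96e-05). GAS6, which bridges dying cells to phagocyte receptors, and LRP1, a receptor for calreticulin, fell in MDA-MB-436 in standard serum by 1.36 and 1.24 (adjusted p = 8.91e-07 and 0.000291). THBS2 was called in opposite directions, lower by 1.49 in MDA-MB-231 in standard serum (adjusted p = 0.0117) and higher in MDA-MB-436 in low serum (adjusted p = 0.000869), where its counts were 0 and 1 in NEG and 6 and 12 in POS libraries. The first of these was lost with DESeq2 (adjusted p = 0.189) and without the first NEG or the first POS library (0.163 and 0.0799).

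Other ligands and receptors of the same kind were then counted, beside the 5.9% and 10.5% of all genes called in low serum and the 7.69% and 12.5% in standard serum, MDA-MB-231 first. Of 18 other ligands tested in low serum, 3 were called higher and 2 lower in MDA-MB-231 and 2 higher and 1 lower in MDA-MB-436. Of 17 tested in standard serum, 3 were called higher in MDA-MB-231, and 2 higher and 2 lower in MDA-MB-436. TNFSF18, the ligand of the costimulatory receptor GITR, rose in MDA-MB-436 by 5.53 ± 0.47 and 4.82 ± 0.49 (adjusted p = 4.23e-13 and 2.69e-07), from at most 2 counts in a NEG library to between 33 and 82 counts in the POS libraries. The standard-serum value was 7.95 without the first NEG library and 3.79 without the second. It also rose in MDA-MB-231, by 1.89 ± 0.28 and 0.93 ± 0.11 (adjusted p = 5.92e-07 and 3.57e-06). CEACAM1, a ligand of TIM-3, rose in MDA-MB-231 by 2.13 ± 0.37 and 3.10 ± 0.70 (adjusted p = 9.66e-06 and 0.00259). It fell in MDA-MB-436 by 1.00 and 2.89 (adjusted p = 9.05e-05 and 3.83e-07). LGALS9 had the same signs but passed only in MDA-MB-231 in low serum and in MDA-MB-436 in standard serum. The CEACAM1 values in MDA-MB-231 were 1.59 and 2.06 without the first NEG library and 2.98 and 7.46 without the second. TNFRSF14, the ligand of BTLA, rose in MDA-MB-436 from 4 and 6 to 22 and 22 counts in low serum (adjusted p = 8.51e-05, or 0.101 on log2(TPM + 1)) and in MDA-MB-231 in standard serum by 1.27 ± 0.13 (adjusted p = 5.58e-07). Among the receptors, CD96, a receptor of PVR, rose in MDA-MB-231 in low serum by 1.60 ± 0.10 (adjusted p = 2.98e-16), and 1 of 9 receptors was called there. In MDA-MB-436 1 of 9 was called in low serum, NECTIN1, lower, and 3 of 8 in standard serum, with RGMB, a PD-L2 receptor, higher by 1.28 ± 0.07 (adjusted p = 9.97e-11), CD44 higher by 1.21 ± 0.07 (adjusted p = 3.03e-10) and SIRPG lower by 1.61 (adjusted p = 0.00154, or 0.0892 with DESeq2).

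A list of 12 established Wnt target or feedback genes was read beside the reporter state. Calls in this list and in the marker lists below stand beside shares over all genes. These were 5.9% and 7.69% in MDA-MB-231 and 10.5% and 12.5% in MDA-MB-436 (low and standard serum). In MDA-MB-231 LGR5 was called higher in low serum and RNF43 in standard serum. In MDA-MB-436 DKK1 was called higher in both sera, with NKD1 and NKD2 lower in low serum and SP5, NKD2 and RNF43 lower in standard serum. This RNF43 call was lost without the first NEG or the first POS library (adjusted p = 0.153 and 0.106) and on log2(TPM + 1) (0.221). DKK1, a secreted Wnt antagonist, rose in MDA-MB-436 by 2.11 ± 0.06 and 1.78 ± 0.08 (adjusted p = 7.9e-29 and 6.21e-12). The marker lists were counted in the same way. From the leukocyte list, 12 genes passed the count filter at low serum and 10 did at standard serum. In each comparison 1 of them was called higher (PTPRC, CD8A, CD4 and CD8A). ITGAM was called lower in both MDA-MB-436 comparisons, and LYZ in MDA-MB-231 in standard serum. Whether the calls in this short list exceed the shares over all genes was not tested. Of these calls, that of CD4 was lost without either NEG library or the second POS library (log2 fold changes of 1.45, 2.57 and 1.53). The LYZ call was lost on log2(TPM + 0.1) (adjusted p = 0.0564). The part of other cells in the results was not tested. Of 8 mesenchymal genes 1 was called lower in MDA-MB-231 in low serum (VIM), 2 lower (VIM and FN1) and 1 higher (SPARC) in standard serum, and FN1 and SPARC higher in MDA-MB-436 in low serum, SPARC alone in standard serum. Of 8 luminal and epithelial genes, KRT5 was called higher in both MDA-MB-436 comparisons and ESR1 in MDA-MB-231 in standard serum, with PGR lower in MDA-MB-436 in low serum, all at means near or under 1 CPM.

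The second comparison asked how far the lines differed at the same reporter state. Of the 10 genes, 5 were called in NEG cells and 5 in POS cells in low serum, where 41.9% and 38.9% of all genes were called. In standard serum 6 were called in NEG and 8 in POS cells, against 46.7% and 45.4%. Among the 6 was VTCN1, at no more than 7 counts in a library.

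NT5E gave the widest gap in NEG cells. It was higher in MDA-MB-231 by 16.7-fold in NEG and 5.68-fold in POS cells in low serum (log2 values 4.07 ± 0.06 and 2.51 ± 0.05, adjusted p = 3.1e-40 and 3.72e-34). In standard serum the gap was 53.6-fold and 14.5-fold (5.74 ± 0.09 and 3.85 ± 0.08, adjusted p = 1.62e-19 and 8.78e-18). CD274 was higher by 3.13-fold and 5.89-fold in low serum (adjusted p = 5.88e-19 and 2.42e-25) and by 13.5-fold and 16.8-fold in standard serum (adjusted p = 6.46e-16 and 1.64e-16). PVR followed with log2 values of 1.10, 1.92, 2.71 and 2.67, and PDCD1LG2 with 0.82, 1.36, 2.53 and 1.59, in the order NEG and POS in low serum, then NEG and POS in standard serum. LGALS9 was higher in MDA-MB-231 by 2.51, 3.78 and 2.24 in 3 of these contrasts, while the NEG cells in standard serum gave 0.21 ± 0.32 (adjusted p = 0.556). CD47 was higher by 0.43, 0.90, 0.60 and 1.09, but the first of these was 0.03 on log2(TPM + 1) (limma, adjusted p = 0.834). On that scale the median of genes of at least 5 CPM was -0.34 in this contrast.

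Of the 7 genes plotted by level, CD276 was the one that was lower in MDA-MB-231, by 0.93, 0.97, 1.03 and 1.01 on the log2 scale in the same order (adjusted p = 8.06e-18, 2.39e-17, 1.61e-09 and 3.02e-09). The last of these fell short of 2-fold without the second POS library of either line (-0.96 and -0.90). IDO1 was higher in MDA-MB-231 NEG cells in low serum by 2.44 ± 0.62 (adjusted p = 0.000526), from 4 and 2 counts in MDA-MB-436 to 18 and 13, and in POS cells in standard serum it had 21 and 27 counts in MDA-MB-231 against 0 and 1.

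The test of the difference between the lines in the POS and NEG contrast called 2 of 10 in low serum (LGALS9 and NT5E), where 11.7% of all genes were called, and 3 of 10 in standard serum (LGALS9, NT5E and VTCN1), against 13.8%. The VTCN1 call rested on 7 counts at most in a library, and with a replicate block 2 of 10 were called in standard serum. Without the 2-fold requirement 5 of 10 passed in each serum, against 45.7% and 41.2% of all genes.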

How the data were processed

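RNA-seq of 16 libraries was read from tables of counts and TPM. According to the methods and processing notes, the authors aligned reads to hg19 with STAR (2.6.1a in the processing notes, another patch release in the methods) after removing rRNA reads with Bowtie, and deposited raw gene counts from STAR on Gencode 19 annotation. The deposited TPM values were made by the authors. How they were computed, and which strand column was counted, is not given in the sources used here. Low-serum and standard-serum libraries were fitted separately, each with 8 libraries in 4 groups.

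Testing used edgeR 4.0.16 (TMM, robust quasi-likelihood test, R 4.3.3) on every protein-coding gene whose counts added up to 10 or more across a serum's 8 libraries, with Benjamini-Hochberg adjustment over all genes tested. CPM are TMM-scaled. DESeq2 1.42.0 and, on log2(TPM + 1) and log2(TPM + 0.1), limma 3.58.1 were alternatives, as were DESeq2 size factors, other filters, all biotypes, a replicate block, and leaving out each library. Symbols from a GRCh37 Gencode annotation matched 55538 of 57820 identifiers. Tables and plots were made with Python 3.11.15, and 0 columns of sample values were left unused. Simulated 4-fold changes were given to 200 genes averaging above 1 CPM, each gene otherwise having the same mean in all groups. The comparison of MDA-MB-231 POS with NEG recovered 99.5% with 0 false calls in low serum (16069 genes). In standard serum (15414 genes) it recovered 98.5% with 2 false calls. These rates do not cover genes with fewer counts or changes under 4-fold. Counts per library of 27918418 to 46044073 limit genes with few counts, and 2 replicates per group limit every test.

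The members and gene lists were chosen with earlier results of these data known. Named are all 10 genes, up to 4 genes per other list with the greatest change among those called in a POS and NEG comparison, neighbours of called members, and the 3 genes most like CD274. Genes named outside that rule are marked as such or are given with their list's calls. Fold changes are not given where no library compared exceeded 12 counts.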

Additional observations from a re-analysis of the deposited data

Results flagged for a closer look

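The response to reporter state differed between the lines by a direct test for 5 genes in low serum. As MDA-MB-231 minus MDA-MB-436 on the log2 scale, the differences were 0.91 for CD274, 0.82 for PVR, -1.56 for NT5E, 1.27 for LGALS9 and 0.47 for CD47. In standard serum 5 genes differed in this way. VTCN1 was one (adjusted p = 0.0463), with at most 7 counts in a library and no value given, and the others had -0.94 for PDCD1LG2, -1.89 for NT5E, 2.03 for LGALS9 and 0.49 for CD47. The LGALS9 value in low serum lost the threshold without the second NEG library of MDA-MB-436 (adjusted p = 0.0999) or its first POS library (0.148).

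Some genes had POS and NEG libraries that separated in opposite directions in the 2 sera, a difference that was not tested because serum, culture time and library chemistry cannot be told apart. PDCD1LG2 gave 0.34 in low serum and -0.60 in standard serum in MDA-MB-231, and -0.21 and 0.34 in MDA-MB-436. Of these values -0.60 alone passed the adjusted p in the main test, and it was lost without the second POS library. PVR gave -0.34 and 0.38 in MDA-MB-436. NT5E gave 0.14 and -0.10 in MDA-MB-231, where the second did not pass (adjusted p = 0.318) and the first turned sign on the TPM scale.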

How the results depend on the processing

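Counts of the 10 genes called changed most on the TPM scale and with the threshold. On log2(TPM + 1), MDA-MB-231 POS against NEG gave 0 in low and 0 in standard serum, MDA-MB-436 gave 1 and 1, the line difference in response gave 1 and 1, NEG cells between lines in low serum gave 3, and POS cells between lines in standard serum gave 5. On log2(TPM + 0.1), MDA-MB-231 gave 0 in low and 2 in standard serum and MDA-MB-436 gave 1 in standard serum. DESeq2 gave 0 for MDA-MB-231 in standard serum. With the adjusted p alone the counts were 6 (MDA-MB-231), 6 (MDA-MB-436), 5 (line difference) and 8 (NEG between lines) in low serum, and 6, 5 and 5 for the first 3 in standard serum. Leaving out each library in turn gave 1 to 2 for MDA-MB-231, 1 to 2 for MDA-MB-436, 1 to 3 for the line difference, 5 to 5 for NEG and 5 to 6 for POS cells between lines in low serum, and 1 to 2, 2 to 2, 2 to 4, 5 to 6 and 7 to 8 in standard serum. Signs turned for NT5E (-0.0635 and -0.0636) and CD47 (-0.0512 and -0.0522) in MDA-MB-231 in low serum on the 2 TPM scales, where the median of genes of at least 5 CPM itself moved from -0.0136 to -0.1926 and -0.2122. The CD276 line difference in response turned in low serum with DESeq2 (0.0039), its size factors (0.0041) and TPM (0.0351 and 0.0038). In standard serum it turned with TPM (-0.0189 and -0.0303). Without 1 library the ranges that crossed 0 were -0.1437 to 0.6958 for IDO1 in MDA-MB-231 in low serum, -0.704 to 0.2481 for LGALS9 in MDA-MB-436 in low serum, -0.1166 to 0.0292 and -0.0867 to 0.1415 for the CD276 line difference in low and standard serum, and -0.1068 to 0.4842 for LGALS9 in NEG cells between lines in standard serum. The cause was not tested. Over all gene values outside the libraries left out, 1121 kept their direction and side of the threshold, 70 became weaker, 6 stronger and 10 turned. The replicate numbers were not taken to pair the samples, which would have needed every correlation of same-numbered deviations between groups to exceed 0.1. In low serum 0 of 6 did (-0.21 to 0.08) and in standard serum 5 of 6 (-0.05 to 0.41). With the replicate block the counts were 1, 2, 2, 5 and 5 in low and 1, 2, 2, 6 and 8 in standard serum. The line difference in standard serum was thus 2 with the block, against 3 without it. Depth limits VTCN1, ENTPD1 and IDO1, and 2 replicates per group limit every test.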
